A study of Mus musculus with 10 samples.

Results

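The genes described here are 35 enzymes, transporters and regulators of glucose breakdown, glucose production and the response to low oxygen. They were taken by symbol from a table of 24541 genes, and all 35 had at least 1 row. By role they are 15 glycolytic enzymes, 3 transporters of glucose and lactate, 4 genes of the pyruvate dehydrogenase step, 7 genes of the hypoxia response, 5 gluconeogenic enzymes and the fructose kinase gene Khk. They were measured by RNA-seq in kidney cells held by magnetic beads against F4/80, a macrophage surface protein encoded by Adgre1, after the perfused kidneys had been digested with enzymes and dead cells removed. The 4 mutant libraries came from heterozygotes (C105F/+) for a cysteine-to-phenylalanine substitution in uromodulin, introduced by Cas9 editing of C57BL/6J embryos, and the 6 wild-type libraries from littermates without it (+/+). All mice had a C57BL/6 background and were 12 to 16 weeks old. The edit is in the germline, so every cell of the mouse carries it, and the sources used here do not say how many founders the mutants descend from. The stated question was whether macrophage expression links uptake of aggregated uromodulin to disease in the mutants.

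Glycolysis splits glucose into pyruvate in the cytosol, and lactate dehydrogenase turns pyruvate into lactate where it is not burned in mitochondria. Gluconeogenesis runs the other way with a few enzymes of its own, which in the kidney are made chiefly by proximal tubule cells, while the later nephron segments and activated macrophages rely more on glycolysis. The hypoxia-inducible factors, whose alpha subunits are marked for destruction by oxygen-dependent prolyl hydroxylases, raise many glycolytic genes when oxygen is short.

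The libraries held 45380415 to 73643200 estimated read counts, and RNA of proximal tubule markers far outweighed that of macrophage markers in most of them. The 12 proximal tubule markers summed to between 12272 and 25389 CPM (read counts scaled to a common library size, with factors set by TMM), while the 14 macrophage markers summed to between 682 and 8263 CPM in mutants and between 261 and 4073 CPM in wild type, with none of the 14 at 0. Adgre1, the gene of the protein used for selection, ran from 13.96 to 819 CPM and ranked 946 by mean CPM. With tubule markers this high in every library, the libraries are mixtures rather than purified macrophages. Such sums depend on the markers chosen and do not measure the share of RNA from each cell type. A macrophage score, the mean log2 CPM of the 14 markers with each centred over the libraries, was -0.71, -0.78, 1.06 and 2.81 in mutant replicates 1, 2, 4 and 5 and ran from -2.10 to 1.70 in wild type. Mutant replicate 5 had the highest score and wild-type replicate 1 the lowest. Umod, the edited gene, had a mean of 2470 CPM (SD 1615) in the 4 mutants and 10076 CPM (SD 3056) in the 6 wild-type mice, but a substitution need not change RNA level, so this does not check the genotypes. In such mixed samples, fewer cells of a type and less RNA per cell cannot be told apart.

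Promoter windows are shown for 5 of the genes, because the results below turn on them: Hk2 and Bnip3 had the smallest p for a higher and a lower level with the macrophage score, Pdk1 and Pfkm had every mutant library below every wild-type library, and Pck2 had the smallest p of the genes with a positive fold change. Each window runs from 250 bases before to 50 bases after a RefSeq transcript start (build GRCm38.p6, the assembly of mm10), 5′ to 3′ on the gene's strand, and for Pfkm it is the start of its most abundant transcript. Capitals mark the core of the hypoxia response element, ACGTG or GCGTG, on either strand. In Pck2 they also mark TGATGNAAN, the core of the element that ATF4 binds together with C/EBP factors, which lies there on the opposite strand.
Hk2 (chr6:82774405-82774704, minus strand): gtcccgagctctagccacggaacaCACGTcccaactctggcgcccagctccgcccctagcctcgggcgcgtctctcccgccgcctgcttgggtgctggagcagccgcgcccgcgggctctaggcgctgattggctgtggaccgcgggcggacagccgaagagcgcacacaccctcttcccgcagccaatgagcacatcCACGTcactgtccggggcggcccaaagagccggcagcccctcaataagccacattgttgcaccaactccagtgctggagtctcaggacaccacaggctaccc
Bnip3 (chr7:138909457-138909756, minus strand): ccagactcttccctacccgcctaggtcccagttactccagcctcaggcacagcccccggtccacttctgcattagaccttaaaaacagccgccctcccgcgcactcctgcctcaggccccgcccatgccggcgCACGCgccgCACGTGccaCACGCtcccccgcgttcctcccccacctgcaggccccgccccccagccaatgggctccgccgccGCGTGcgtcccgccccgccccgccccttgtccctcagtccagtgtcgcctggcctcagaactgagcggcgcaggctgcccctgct
Pdk1 (chr2:71872974-71873273, plus strand): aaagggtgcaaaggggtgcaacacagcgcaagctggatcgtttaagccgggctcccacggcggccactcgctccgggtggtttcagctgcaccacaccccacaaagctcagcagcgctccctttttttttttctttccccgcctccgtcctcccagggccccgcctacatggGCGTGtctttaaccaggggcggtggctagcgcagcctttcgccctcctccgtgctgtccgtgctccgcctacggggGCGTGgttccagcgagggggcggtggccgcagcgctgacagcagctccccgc
Pfkm (chr15:98108221-98108520, plus strand): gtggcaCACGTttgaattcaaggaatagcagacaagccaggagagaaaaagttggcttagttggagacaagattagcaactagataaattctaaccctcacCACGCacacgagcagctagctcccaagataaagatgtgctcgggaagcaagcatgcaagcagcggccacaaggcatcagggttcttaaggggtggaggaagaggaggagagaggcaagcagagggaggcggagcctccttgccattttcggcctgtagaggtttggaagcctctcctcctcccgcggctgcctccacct
Pck2 (chr14:55540016-55540315, plus strand): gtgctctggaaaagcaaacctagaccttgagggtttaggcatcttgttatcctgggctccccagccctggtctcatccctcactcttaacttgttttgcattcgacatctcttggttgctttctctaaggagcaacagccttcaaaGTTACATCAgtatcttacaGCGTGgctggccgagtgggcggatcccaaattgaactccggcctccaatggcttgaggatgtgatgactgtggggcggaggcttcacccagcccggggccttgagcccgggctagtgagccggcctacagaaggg
RefSeq windows were matched for 34 of the 35 genes, 48 windows in all, since some genes have several starts. The hypoxia core was in 35 of the 48 windows (72.9%) and in 43.8% of all 32851 windows of the same length, where ACGTG alone was in 19.6% and GCGTG alone in 32.4%. By role it was in 76.0% of 25 glycolytic windows, in 6 of 7 hypoxia windows and in 2 of 6 gluconeogenic windows. A CACGTG run holds ACGTG on both strands, and in these shares a window counts once however many cores it holds. Some windows of Aldoa, Eno1 and Pfkm overlap, so the same site was counted in several windows. Pdk1 and Pfkm each also have a window, not shown, that holds no core. The ATF4 core was in 2 of the 48 windows, those of Pck2 and G6pc, and in 3.95% of all windows. These letters describe the windows and were not tested as binding sites.

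Taken per length of transcript, as the deposited FPKM, most glycolytic enzymes from aldolase on stood far above the hexokinases and the phosphofructokinases. Ldhb, the lactate dehydrogenase subunit typical of oxidative tissues, led with 1640 ± 339 FPKM (SD, n = 10 libraries), ahead of Gapdh at 1143 ± 120, Aldoa at 1012 ± 107, Tpi1 at 566 ± 77.5, Eno1 at 560 ± 47.4, Ldha at 542 ± 67.7 and Pgk1 at 453 ± 60.8 FPKM. Tpi1, Eno1 and Ldha do not differ beyond their spread. Pkm, pyruvate kinase, stood at 246 ± 46.5 FPKM, with 77.3% to 83.6% of it on transcript variant 2 in mutants and 78.4% to 83.5% in wild type. The phosphofructokinase genes Pfkm, Pfkl and Pfkp had similar levels of 23.2 ± 3.84, 21.9 ± 2.86 and 18.3 ± 3.96 FPKM. Among the hexokinases Hk1, the housekeeping form, was highest at 33.2 ± 9.97 FPKM, against 1.28 ± 1.80 FPKM for the inducible Hk2 and 2.31 ± 3.52 FPKM for Hk3, which is not one of the 35. These means hide a difference between libraries, since in mutant replicate 5 Hk1 was 33.7, Hk2 6.11 and Hk3 11.3 FPKM. Several of these genes, Gapdh, Eno1 and Ldha among them, have near-identical copies elsewhere in the genome, and how reads were shared between copies is not stated.

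The gluconeogenic enzymes were also well expressed. Fbp1, fructose bisphosphatase, stood at 743 ± 149 FPKM (SD, n = 10 libraries), the cytosolic phosphoenolpyruvate carboxykinase Pck1 at 516 ± 224, the glucose-6-phosphatase gene G6pc at 334 ± 87.1 and pyruvate carboxylase, Pcx, at 123 ± 32.8 FPKM. The mitochondrial carboxykinase Pck2 was far lower at 7.46 ± 1.56 FPKM. Khk, which starts fructose breakdown, stood at 430 ± 116 FPKM. Among the hypoxia genes Bnip3, a mitophagy receptor, was highest at 116 ± 22.1 FPKM, and Hif1a (31.7 ± 6.68) exceeded Epas1, which encodes the HIF-2 alpha subunit (12.2 ± 3.88).

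**Figure D1:**
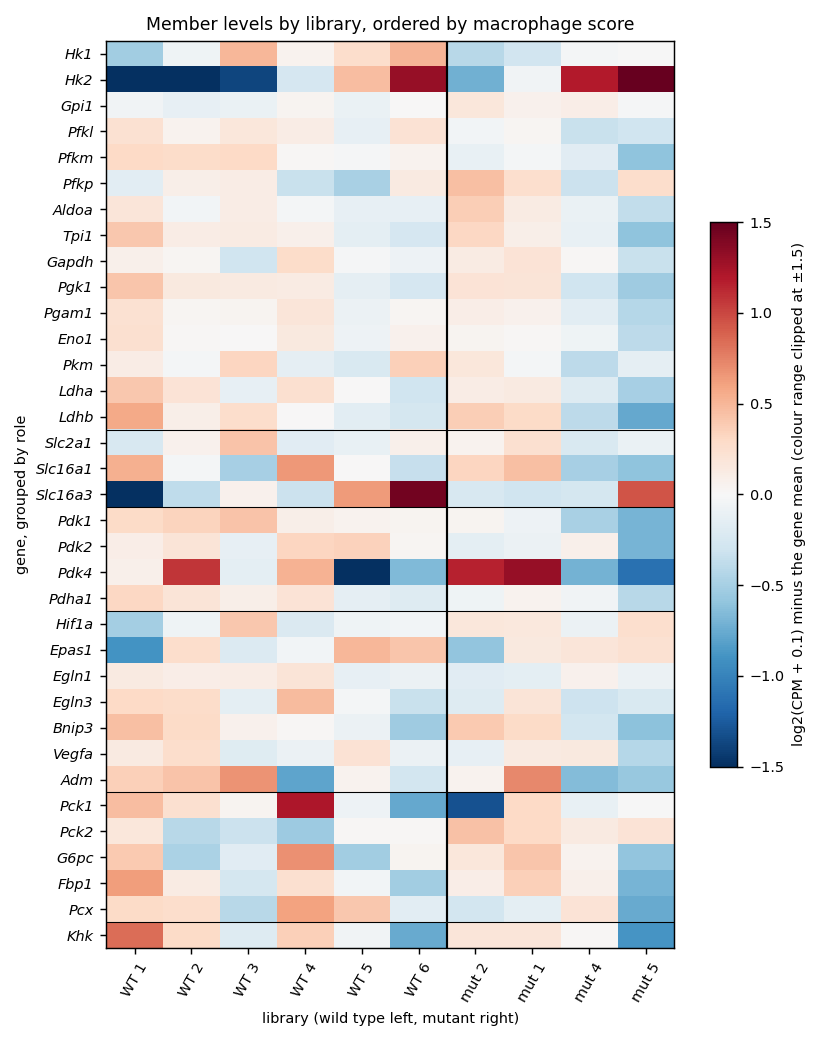
Level of each of the 35 genes (rows, grouped by role) in each of the 10 libraries (columns, wild type left and mutant right, each ordered by macrophage score), as log2(CPM + 0.1) minus the gene's mean, with colours clipped at 1.5 either way. Hk2 and Slc16a3 go from blue to red towards the libraries rich in macrophage markers. Pfkm, Aldoa, Tpi1, Pgk1, Ldha and Ldhb shade the other way and are lowest in mutant replicate 5.

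None of the 35 genes passed the test between mutants and wild type. With edgeR's quasi-likelihood test and Benjamini-Hochberg adjustment over 15123 genes, 0 of 35 were called at an adjusted p under 0.05, where 0.198% of all genes were called, 0.179% higher and 0.0198% lower in mutants. At an unadjusted p under 0.05 there were 4 of 35, of which 3 were lower and 1 higher in mutants, against 5.90% of all genes. DESeq2 and limma voom also called 0 of 35. All 35 passed the filter on low counts. Log2 fold changes ran from -0.49 for Pdk1 to 0.43 for Pck2, apart from Hk2 at 1.70. Of these values 27 of 35 were negative and the median was -0.14, beside 0.01 over all genes tested, where 51.2% were positive. The number of negative values changed with the macrophage score: 18 of 35 were negative with the macrophage score as covariate, with a median that rounds to 0, and 19 of 35 without mutant replicate 5, with a median of -0.03.

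**Figure D2:**
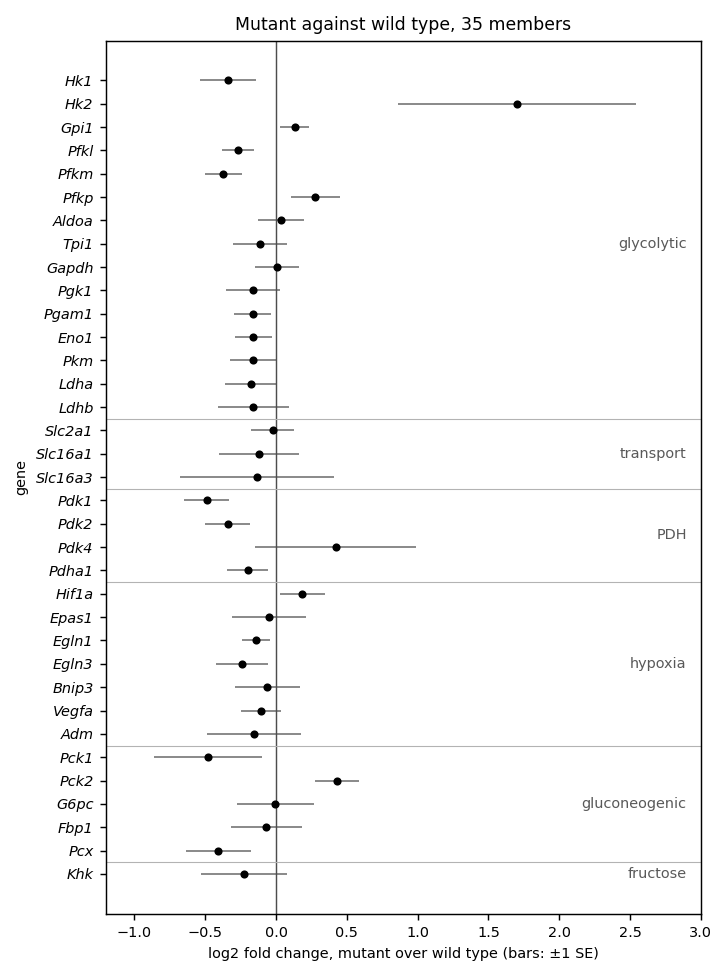
Log2 fold change of the 35 genes, mutant over wild type (points, with bars of 1 SE either way, n = 4 and 6), grouped by role. Most lie between -0.5 and 0.5, and Hk2 stands apart at 1.70 with an SE of 0.84.

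Among the glycolytic enzymes, 5 of 15 fold changes were positive, the median was -0.16 and 0 were called in edgeR, 2 having an unadjusted p under 0.05. Pfkm, the muscle-type phosphofructokinase that catalyses the committed step (gene 18642, chromosome 15, 98092589 to 98132447), measured 65.2, 61.8, 59.3 and 43.9 CPM in mutant replicates 1, 2, 4 and 5. In wild type it ran from 66.1 over a median of 75.0 to 81.9 CPM, so the mutant values all lay below the wild-type range, replicate 1 by less than 1 CPM and replicate 5 furthest. The fold change on the log2 scale was -0.37 (SE 0.131, edgeR adjusted p = 0.701). Of all genes tested, 1.02% had all mutant libraries below all wild-type libraries, and 2 of the 35 genes did.

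Pfkl, the liver-type form of the same enzyme, measured 83.6, 79.2, 64.8 and 66.5 CPM in the mutants and 74.9 to 96.1 CPM, median 89.9, in wild type, with overlapping groups (log2 fold change -0.27, SE 0.113, edgeR adjusted p = 0.812). Pfkp, the platelet-type form, went the other way without passing (0.28, SE 0.174). Per length, the ratio of Pfkp to Pfkm ran from 0.701 to 1.42 in mutants and from 0.563 to 0.826 in wild type. The ranges overlap, since mutant replicate 4 lies inside the wild-type range. This ratio was picked after the values were seen and was not tested.

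Hk2, hexokinase 2, which macrophages induce on activation (gene 15277, chromosome 6, 82725027 to 82774454), had the largest fold change of the 35. It measured 3.67, 2.27, 8.85 and 32.0 CPM in mutant replicates 1, 2, 4 and 5, and 0.914 to 9.61 CPM, median 2.29, in wild type. Only mutant replicate 5, the library with the highest macrophage score, lay above the wild-type range. The log2 fold change was 1.70 (SE 0.841, edgeR adjusted p = 0.891). It was 0.46 without mutant replicate 5 and 0.55 (adjusted p = 0.245) with the macrophage score as covariate, so the value rests largely on that library. Hk1 measured 101 to 133 CPM in mutants and 93.5 to 191 CPM in wild type (log2 fold change -0.34, SE 0.197).

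The enzymes after phosphofructokinase had fold changes near 0, none of them called. Gapdh stood at 1655 ± 255 CPM in the 4 mutants and 1646 ± 211 CPM in the 6 wild-type libraries (mean ± SD), and its log2 fold change was 0.01 (SE 0.155). Aldoa had 0.03, Tpi1 -0.11, Pgk1 -0.16, Pgam1 -0.16, Eno1 -0.16, Pkm -0.16, Ldha -0.18 and Ldhb -0.16 on the same scale, with SE between 0.130 and 0.252, and Gpi1, the isomerase before phosphofructokinase, had 0.13. Ldha and Ldhb had nearly the same balance in both groups, a per-length ratio of Ldha to Ldhb of 0.343 ± 0.0615 in mutants (SD, n = 4) and 0.336 ± 0.0512 in wild type (SD, n = 6).

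The transporters showed no called difference, 0 of 3 in edgeR with 0 at an unadjusted p under 0.05. Slc2a1, the basal glucose transporter GLUT1, measured 166, 146, 120 and 132 CPM in the mutants and 119 to 189 CPM, median 139, in wild type. Slc16a1, the monocarboxylate transporter MCT1, measured 139, 127, 71.8 and 66.8 CPM against 71.8 to 159 CPM, median 101. Slc16a3, the lactate exporter MCT4 of glycolytic cells, measured 1.70, 1.77, 1.75 and 4.16 CPM against 0.629 to 5.95 CPM, median 1.94. In all 3 the groups overlapped, and the log2 fold changes were -0.02, -0.12 and -0.13 with SE of 0.149, 0.283 and 0.542.

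Pyruvate dehydrogenase links glycolysis to the citric acid cycle, and its kinases switch it off. Pdk1, a kinase induced through HIF-1 (gene 228026, chromosome 2, 71873224 to 71903858), had the smallest p of the 35 genes. It measured 49.1, 53.1, 37.0 and 31.8 CPM in mutant replicates 1, 2, 4 and 5 and 53.4 to 70.0 CPM, median 59.2, in wild type. The groups did not overlap, but mutant replicate 2 lay within 1 CPM of the lowest wild-type value. On the log2 scale its fold change was -0.49 (SE 0.158, edgeR adjusted p = 0.648), and it stayed between -0.62 and -0.37 in every alternative fit, with an adjusted p between 0.104 and 0.999. Beside it, the macrophage score was on average 0.99 higher and the ascending limb score 0.55 lower in mutants. With the macrophage score as covariate the fold change was -0.37 (adjusted p = 0.179), and the part of the ascending limb score was not tested.

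Pdk2, the kinase form common in kidney, measured 157, 150, 176 and 103 CPM in mutants and 154 to 212 CPM, median 185, in wild type (log2 fold change -0.34, SE 0.158, edgeR adjusted p = 0.849). Pdha1, the catalytic subunit that the kinases phosphorylate, measured 614, 566, 571 and 444 CPM against 519 to 732 CPM, median 653 (-0.20, SE 0.146). Pdk4, the starvation-induced kinase, was the most uneven of the 4, with 88.7 and 79.6 CPM in mutant replicates 1 and 2, 21.9 and 16.4 CPM in replicates 4 and 5, and 12.7 to 75.2 CPM in wild type (0.42, SE 0.570). In this role group 0 of 4 were called in edgeR, and Pdk1 alone had an unadjusted p under 0.05.

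No hypoxia gene passed the test, 0 of 7 called in edgeR and 0 at an unadjusted p under 0.05, with a median log2 fold change of -0.10. Hif1a, which encodes the HIF-1 alpha subunit and is regulated mainly as protein, measured 162, 163, 136 and 173 CPM in mutants and 102 to 192 CPM, median 139, in wild type (0.18, SE 0.160). The prolyl hydroxylase gene Egln1 measured 64.2, 62.9, 73.9 and 66.8 CPM against 65.2 to 81.1 CPM, median 76.3 (-0.14, SE 0.0995). Its inducible relative Egln3 measured 14.8, 11.3, 10.5 and 11.1 CPM against 10.3 to 18.1 CPM, median 14.2 (-0.24, SE 0.184). All groups overlapped. The target genes Bnip3, Vegfa, the endothelial growth factor, and Adm, adrenomedullin, had fold changes of -0.06, -0.10 and -0.16, and Epas1 had -0.05.

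Among the gluconeogenic enzymes the carboxykinases had fold changes of opposite sign, neither of them called. Pck2, the mitochondrial carboxykinase and a known ATF4 target in other cells (gene 74551, chromosome 14, 55540266 to 55550017), measured 30.9, 34.1, 27.6 and 28.9 CPM in mutants and 17.2 to 28.3 CPM, median 22.7, in wild type. Wild-type replicate 1, at 28.3 CPM, was the only wild-type library to reach the mutant range. The log2 fold change was 0.43 (SE 0.154, edgeR adjusted p = 0.701), between 0.35 and 0.50 in every alternative fit and 0.44 (adjusted p = 0.279) with the macrophage score as covariate, and its slope on that score was -0.01 (SE 0.0517). Its cytosolic counterpart Pck1 measured 1540, 509, 1166 and 1250 CPM in mutants and 740 to 2903 CPM, median 1386, in wild type (-0.48, SE 0.381).

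Pcx measured 451, 410, 572 and 294 CPM in mutants and 371 to 755 CPM, median 603, in wild type (log2 fold change -0.41, SE 0.231, edgeR adjusted p = 0.953). Fbp1 (-0.07, SE 0.251) and G6pc (0 to 2 decimals, SE 0.273) had values near 0. In all, 1 of 5 fold changes was positive and 0 were called in edgeR, with Pck2 alone at an unadjusted p under 0.05. Khk measured 695, 695, 619 and 330 CPM in mutants and 363 to 1096 CPM, median 667, in wild type (-0.23, SE 0.304).

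Set against each other over all 10 libraries, the balance of glycolytic and gluconeogenic enzymes differed between genotypes by less than the spread between libraries. The mean log2 CPM of the 15 glycolytic enzymes was 8.38 ± 0.0987 in mutants (SD, n = 4) and 8.40 ± 0.0608 in wild type (SD, n = 6), and that of the 5 gluconeogenic enzymes 8.65 ± 0.270 and 8.74 ± 0.306. Each enzyme counted the same in these means, so Hk2, at 0.914 to 32.0 CPM, weighed as much as Gapdh. Hk2 and Pck2 had the highest log2 fold changes of their lists, 1.70 and 0.43, and enter the difference with opposite sign. The difference without Hk2 was not computed. The difference of these means was -0.49, -0.07, -0.47 and -0.06 in mutant replicates 1, 2, 4 and 5, and -0.68, -0.32, -0.08, -0.72, -0.33 and 0.05 in wild-type replicates 1 to 6. The mutant values all lay inside the wild-type range. The group means were -0.27 ± 0.242 and -0.35 ± 0.311, 0.08 apart, which is less than the pooled SD between libraries of 0.287, and no test was made of this score. Between same-numbered libraries, which leaves out wild-type replicates 3 and 6, the mutant value was higher by 0.189, 0.256, 0.251 and 0.277. The labels do not say what a shared number means. Summed FPKM over the 10 libraries ran from 1295 to 2553 for the gluconeogenic and from 5049 to 7354 for the glycolytic enzymes.

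**Figure D3:**
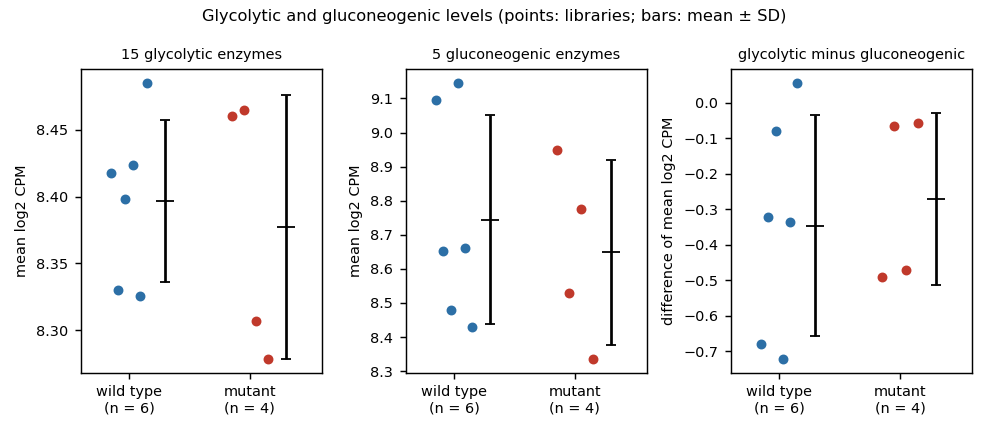
Mean log2 CPM of the 15 glycolytic enzymes (left) and the 5 gluconeogenic enzymes (middle) and their difference (right) in each library (points), with mean and SD per group; the vertical axes do not start at 0. The 4 mutant differences lie within the range of the 6 wild-type differences.

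More of the genes passed the test on the macrophage score than the test on genotype. At fixed genotype, 3 of the 35 genes were higher and 13 lower with the macrophage score (edgeR quasi-likelihood test of the slope, adjusted over all genes), where 19.8% of all genes were higher and 16.3% lower. The genes that were higher were Hk1, Hk2 and Slc16a3. Those that were lower were Pfkm, Aldoa, Tpi1, Pgk1, Ldha, Ldhb, Pdk1, Pdk4, Pdha1, Bnip3, Adm, Fbp1 and Khk. As shares these are 8.57% and 37.1% of the 35. A slope here is the log2 change in CPM for each unit of the score, where 1 unit of the score is 1 log2 unit of the average macrophage marker. CPM is a share of each library, so a lower level in tubule cells and fewer tubule cells beside more macrophages cannot be told apart. Scores made the same way from other markers also differed between wild-type replicates 1 and 6, the lowest and highest macrophage scores in wild type. They were -0.93 and 0.84 for endothelium, -1.28 and 1.83 for fibroblasts and smooth muscle, and -2.10 and 1.35 for neutrophils. For the collecting duct they were -0.225 and -0.237. Which of these cell types a slope belongs to was not tested.

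Hk2 had the steepest slope, 0.96 (SE 0.0582, edgeR adjusted p = 2.39e-07), close to proportional to the macrophage markers. It kept its call without any 1 library, with slopes from 0.93 to 1.00, and in the 6 wild-type libraries alone (0.95, adjusted p = 0.000436). Slc16a3 had a slope of 0.52 (SE 0.107, adjusted p = 0.00322), likewise called in each of those fits (0.69, adjusted p = 0.0174 in wild type alone). Hk1 had only 0.15 (SE 0.0516, adjusted p = 0.0371) and lost its call in 8 of the 10 fits without 1 library and in wild type alone.

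Among the genes that were lower, Bnip3 had the smallest p, with a slope of -0.25 (SE 0.0314, edgeR adjusted p = 0.000108). Its highest value was 276 CPM in wild-type replicate 1, the library with the lowest macrophage score, and its lowest 132 CPM in mutant replicate 5, the one with the highest. Ldhb fell by 0.25 with each unit of the score (SE 0.0432, adjusted p = 0.00104), Pgk1 by 0.18 (SE 0.034), Tpi1 by 0.19 (SE 0.0362), Khk by 0.30 (SE 0.0615) and Pdk4 by 0.55 (SE 0.140). Without mutant replicate 5 the count was 2 higher and 5 lower, the 5 being Tpi1, Pgk1, Ldhb, Bnip3 and Khk, where 12.8% of all genes were higher and 9.66% lower. In the 6 wild-type libraries alone it was 2 higher and 1 lower, with Bnip3 as the one lower, where 8.43% of all genes were higher and 3.52% lower. None of the 13 slopes changed sign in any of these fits.

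Pck2, Pck1, G6pc and Pcx had slopes of -0.01, -0.06, -0.13 and -0.06 and were not called, nor were Gapdh, Eno1, Pkm, Pfkl, Pfkp, Gpi1 and Pgam1, whose slopes lay between -0.09 and -0.01. Hif1a, Egln1 and Slc2a1 were near level at 0.03, -0.02 and -0.04, and Pdk2, Vegfa and Egln3 had -0.05, -0.07 and -0.11. Larger slopes without a call were those of Epas1 (0.19, edgeR adjusted p = 0.0598) and Slc16a1 (-0.21, edgeR adjusted p = 0.0652). DESeq2 called Epas1 higher, and Slc16a1 and Pgam1 lower, on the macrophage score. On scores of proximal tubule and ascending limb markers 0 of 35 were called in edgeR, where 0.00662% and 0.146% of all genes were higher and 0% and 0.0132% lower. The SD of the wild-type libraries was 0.307 for the proximal tubule and 0.235 for the ascending limb score, against 1.41 for the macrophage score. In the mutant libraries these SDs were 0.330, 0.659 and 1.70. DESeq2 called 2 of 35 on the proximal tubule score, Pdk2 and Pcx, both higher, where it called 3.08% of all genes higher and 1.11% lower. On the ascending limb score it called 9 of 35 higher and 1 lower, where 7.22% of all genes were higher and 5.13% lower. Without wild-type replicate 6, edgeR called 7 of 35 higher and 1 lower on that score, where 9.46% of all genes were higher and 13.2% lower.

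**Figure D4:**
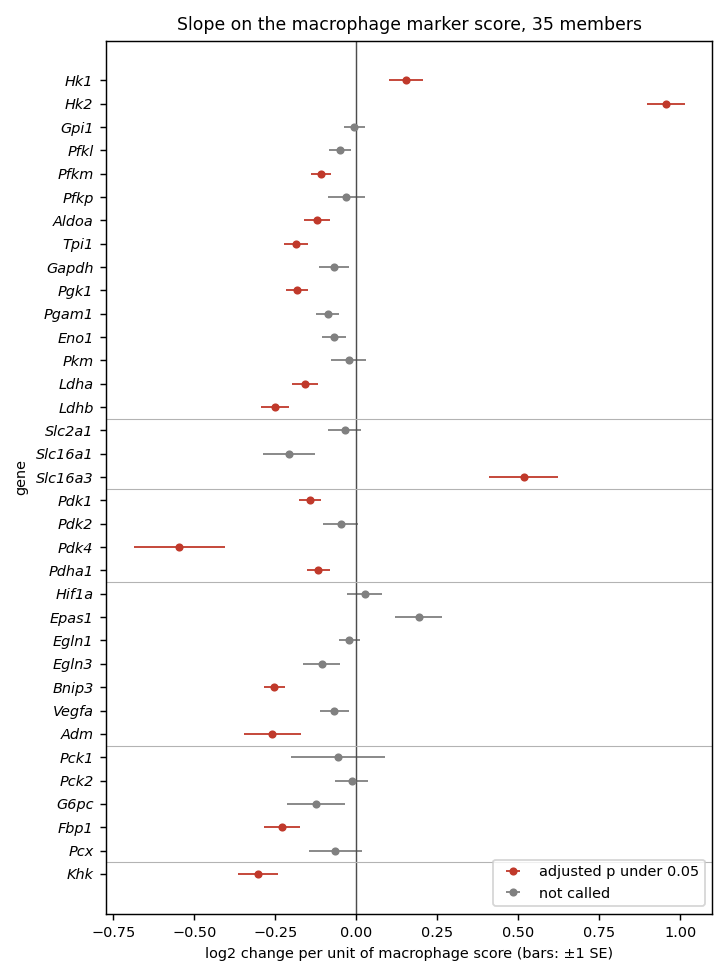
Slope of each of the 35 genes on the macrophage score, in log2 CPM for each unit of the score at fixed genotype (points, with bars of 1 SE either way, 10 libraries), red where the edgeR adjusted p was under 0.05. Hk2 at 0.96 and Slc16a3 at 0.52 lie far to the right, and most other called genes lie between -0.30 and -0.11.

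**Figure D5:**
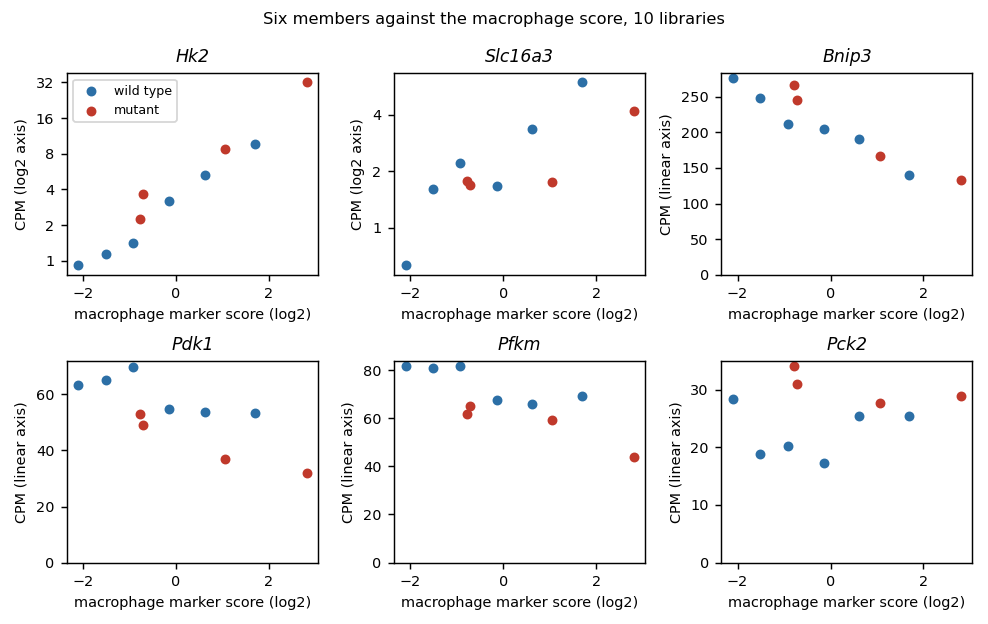
CPM of 6 genes against the macrophage score in the 10 libraries (wild type blue, mutant red; Hk2 and Slc16a3 on a log2 axis, the others on a linear axis from 0). Hk2 is higher and Bnip3 lower towards high scores in both genotypes, the red Pdk1 and Pfkm points lie below the blue ones, and the red Pck2 points lie high at every score.

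A wider list of 70 genes of the same pathways held the other isoforms, and 65 of them passed the filter on low counts. Between mutants and wild type 0 of 65 were called in edgeR and 8 (12.3%) had an unadjusted p under 0.05, against 5.9% of all genes, with a median log2 fold change of -0.09. The groups did not overlap in 5 of the 65: Slc5a1, Ppargc1a, Mxi1 and Slc2a5 were lower in every mutant library and Ero1l higher, where 1.02% of all genes had all mutants below and 0.946% all above. Slc5a1, the sodium-glucose transporter SGLT1, came nearest. It measured 101, 125, 85.6 and 58.3 CPM in mutants and 125 to 213 CPM, median 157, in wild type, without overlap (log2 fold change -0.81, SE 0.210, edgeR adjusted p = 0.339). The gap to the wild-type range was under 1 CPM for mutant replicate 2. Aldoc, the brain-type aldolase, measured 17.2, 13.9, 10.5 and 10.1 CPM in mutants and 15.9 to 35.1 CPM, median 24.2, in wild type (-0.90, SE 0.236, edgeR adjusted p = 0.341), and mutant replicate 1 alone reached the wild-type range. DESeq2 called these 2 of the 65, and limma 0.

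The next genes by p had edgeR adjusted p from 0.377 to 0.699. Ppargc1a, a coactivator of mitochondrial and gluconeogenic genes, measured 34.7, 45.6, 46.9 and 32.6 CPM in mutants and 51.04 to 70.5 CPM, median 55.2, in wild type (-0.56, SE 0.153). Hif1an, the asparaginyl hydroxylase that restrains HIF, measured 24.6, 24.3, 31.1 and 26.9 CPM against 30.8 to 38.5 CPM, median 35.8 (-0.38, SE 0.111), and only mutant replicate 4 reached the wild-type range. Slc2a4, the insulin-regulated glucose transporter, measured 34.5, 46.4, 20.6 and 14.8 CPM against 42.0 to 70.0 CPM, median 52.3 (-0.89, SE 0.293), and here mutant replicate 2 did. Mxi1, a MYC antagonist induced by hypoxia, measured 39.7, 49.1, 46.9 and 35.9 CPM against 50.1 to 55.6 CPM, median 54.1 (-0.31, SE 0.107). All 8 tested transport genes of this list had negative fold changes, with a median of -0.45. Both the proximal tubule and the ascending limb markers were lower on balance in mutants, with 11 of 12 and 7 of 7 fold changes negative and medians of -0.22 and -0.44, and their part in these values was not tested.

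With the macrophage score, 6 of the 65 were higher (9.23%) and 17 lower (26.2%), beside 19.8% and 16.3% of all genes, so the higher share was below that of all genes and the lower share above it. The higher ones were Hk3, a hexokinase of myeloid cells (slope 1.14, SE 0.0790), Slc2a3, the high-affinity transporter GLUT3 (0.65, SE 0.0869), Pfkfb4, which sets the level of an activator of phosphofructokinase (0.63, SE 0.0568), and Lox, Arnt and Kdm3a (0.43, 0.13 and 0.14). Among the lower ones were 6 of 9 genes of pyruvate entry into mitochondria: the pyruvate carrier subunits Mpc1 (-0.24) and Mpc2 (-0.30), the dehydrogenase subunits Pdhb (-0.20), Pdhx (-0.18) and Dld (-0.14), and the kinase Pdk3 (-0.22). The edgeR adjusted p of these 12 lay between 7.26e-07 and 0.0179. Hk3 measured 0.552 to 15.1 CPM in wild type and 1.69 to 34.4 CPM in mutants, highest in mutant replicate 5 as Hk2 was.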

How the data were processed

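RNA from F4/80-selected kidney cells of 4 mutant and 6 wild-type mice, each a separate mouse per the labels, was sequenced from stranded poly(A) libraries. The submitters' processing notes name StringTie 1.3.4d, the aligners HISAT2 2.1.0 and Bowtie2 2.3.4.1, Trimmomatic 0.38, DESeq2 and build mm10. The authors deposited estimated counts of reads, and FPKM, for 36779 transcripts. An estimated count, as deposited, is not normalized between libraries and was proportional to FPKM times transcript length. How reads shared by near-identical copies were apportioned is not stated there. Deposited counts, which were whole numbers, were summed per gene symbol (24541), and genes were kept by filterByExpr (15123). Deposited FPKM were summed per symbol and used for levels between genes and ratios within a library. Genotype was tested over all 10 libraries with edgeR 4.0.16 (TMM, quasi-likelihood, R 4.3.3) and Benjamini-Hochberg adjustment over all genes tested, called at an adjusted p under 0.05. Log2 CPM used a prior count of 2. Scores are means of centred log2 CPM over marker lists, and slopes on a score were fitted with genotype as covariate, markers included among the genes tested. The scripts were checked on simulated data. Alternatives were DESeq2 1.42.0, limma 3.58.1 voom, DESeq2 size factors, no filter, score covariates, a replicate block, the most abundant transcript alone and leaving out each library.

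Library values were given for the 3 genes with the smallest p of each role, for genes whose groups did not overlap and where a sentence turns on a slope; outside the 35, the called genes and the 6 with the smallest p were named. The 35 genes, the wider list and the marker lists were chosen with earlier results of these data known. No pair of libraries of a group had counts that agreed within sampling noise, the smallest chi-square per gene being 74.9. Replicate numbers were not taken as pairs in the main test.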

Additional observations from a re-analysis of the deposited data

Results flagged for a closer look

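In 3 of 76 groups of libraries examined, 1 library stood apart from the rest of its group by Dixon's test at the 95% level, where chance gives about 5% of groups. Slc16a3, the lactate exporter, was 4.164 CPM in mutant replicate 5 and 1.70 to 1.77 CPM in the other mutants. Epas1 was 41.53 CPM in mutant replicate 2 and 69.3 to 73.4 CPM in the other mutants. Khk, the fructose kinase, was 330.4 CPM in mutant replicate 5 and 619 to 695 CPM in the other mutants. Mutant replicate 5 also had the highest macrophage score of the 10 libraries, 2.81, and its part in the values of Slc16a3 and Khk was not tested within the mutants.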

How the results depend on the processing

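Of all genes, 30 were called between genotypes by edgeR, 143 by DESeq2 (66 higher, 77 lower), 52 with the macrophage score as covariate, and 14 to 24 without 1 library. Members called numbered 0 in each of these. Of the wider list DESeq2 called 2. Replicate numbers 1, 2, 4 and 5 occur in both groups, and the labels do not say what a shared number means. Same-numbered libraries had deviations correlated at 0.426, 0.278, 0.0174 and 0.445, not all above 0.1. Mutant replicate 2 correlated best with wild-type replicate 1. Adgre1 rose with replicate number in both groups, from 13.96 to 406 CPM in wild type and from 58.2 to 819 CPM in mutants. What the numbers stand for was not tested. With a replicate block over these 8 libraries, 217 of all genes, 1 of the 35 (Hk2, 1.78, edgeR adjusted p = 0.0373) and 1 of the wider list were called. The same 8 libraries without the block, an alternative chosen after seeing the data, gave 21, 0 and 0. For numbers 1, 2, 4 and 5 the macrophage score was -0.71, -0.78, 1.06 and 2.81 in mutants and -2.10, -1.52, -0.15 and 0.61 in wild type. The mutant score was higher each time, and its part in the Hk2 call was not tested. On the macrophage score 16 of the 35 were called, 3 in wild type alone and 7 to 17 without 1 library, the 7 being without mutant replicate 5. On the proximal tubule score DESeq2 called 2. On the ascending limb score DESeq2 called 10, and 0 to 8 were called without 1 library, the 8 being without wild-type replicate 6. The cause was not tested.

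Fold changes that turned direction were called in no setting. With the macrophage score as covariate they were Adm 0.056, Bnip3 0.16, Fbp1 0.15, G6pc 0.085, Khk 0.079, Ldhb 0.040, Slc16a1 0.032, Slc2a1 0.0067 and Tpi1 0.051, and with the proximal tubule score Bnip3 0.038, Fbp1 0.11, G6pc 0.10 and Slc16a1 0.10. With the replicate block they were Epas1 0.030, Gapdh -0.087, Slc16a3 0.47 and Slc2a1 0.10, and in the 8 libraries without it Gapdh -0.078, Slc16a3 0.37 and Slc2a1 0.11. The log2 fold change of G6pc was 0.00826 in limma, and the log2 fold change of Gapdh was -0.00553 without a filter and -0.00552 on its most abundant transcript, where Vegfa had 0.19. Without 1 library the ranges were Aldoa -0.11 to 0.15, Tpi1 -0.27 to 0.036, Gapdh -0.073 to 0.11, Ldhb -0.34 to 0.017, Slc2a1 -0.13 to 0.071, Slc16a1 -0.32 to 0.036, Slc16a3 -0.57 to 0.31, Bnip3 -0.23 to 0.10, Vegfa -0.19 to 0.0011, Adm -0.52 to 0.0090, Epas1 -0.20 to 0.10, G6pc -0.16 to 0.16 and Fbp1 -0.22 to 0.11. The glycolytic minus gluconeogenic difference between genotypes ran from 0.00 to 0.16 without 1 library and was 0.24 with the replicate block, where the same-number differences were 0.189, 0.256, 0.251 and 0.277, beside 0.08 over all 10 libraries.

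With 4 mutants and a macrophage score that varied within both groups, the SE of the log2 fold change exceeded 0.5 for Hk2, Slc16a3 and Pdk4, which limits what their tests can show.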
